A study of Rattus norvegicus with 28 samples.

Results

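The levels of 9 genes of glucose uptake, glucose phosphorylation and glycolysis were examined across all 14 groups of an RNA-seq study of rat insulinoma cells. Members were taken by symbol: the glucose transporters Slc2a1 and Slc2a2, the glucose-6-phosphatase subunit G6pc2, the phosphofructokinase subunits Pfkl, Pfkm and Pfkp, the aldolase Aldoa, the phosphoglycerate kinase Pgk1 and the pyruvate kinase Pklr. Of the 9 genes, 8 had a row in the table of transcript levels and all 8 were tested, among 17455 symbols in the table and 10275 genes tested; G6pc2 had no row and is not analysed here. INS-1 cells are an insulin-producing line from a rat islet tumour, and the libraries came from WT cells and from cells with a Med14 S983A knock-in, which replaces a serine of Med14, a scaffold subunit of the Mediator complex, with alanine. Each genotype was left as CON or treated for 1, 8 or 16 h with 10 nM Ex-4 (exendin-4, which activates the receptor for the incretin GLP-1) or 10 µM FSK (forskolin, which activates adenylyl cyclase directly), with 2 libraries in each group and 28 in all. The knock-in lines were grown from single sorted cells after genome editing, so a difference between genotypes may also be a difference between clones, and which clone each library came from is not given in the sources used here. The methods of the study speak of biological replicates and of independently made knock-in lines, but do not say whether the libraries of a group came from separate cultures, and where they did not, the p-values measure only a technical spread.

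Glucose enters a beta cell through facilitative transporters, of which Slc2a2 encodes the low-affinity GLUT2 and Slc2a1 the high-affinity GLUT1. Its phosphorylated form can be hydrolysed back by G6pc2, and phosphofructokinase commits it to glycolysis as a tetramer of muscle, liver and platelet subunits. Aldolase, phosphoglycerate kinase and pyruvate kinase carry the carbon on to pyruvate, and the rise in ATP that follows closes potassium channels and triggers insulin release. Both agents used here raise cAMP, which activates protein kinase A and the transcription factor CREB.

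Values are in TPM, which counts the transcripts of a gene among a fixed number in the library and corrects for transcript length, so levels can be set against each other between genes. Differences are on the log2(TPM + 1) scale with their standard error (SE) from a limma fit to all 28 libraries, and a gene was called where its Benjamini-Hochberg adjusted p was under 0.05 over the 10275 genes and its fold was above 1.5. Apart from ranges of levels over the groups, folds are ratios of TPM + 1. For genes at a few TPM they understate the ratio of the TPM values. The libraries held 38175238 to 82873934 fragments, and the largest of them, an S983A library at 8 h FSK, stood above the next at 51335378. The 8 genes were covered by at least 1296 fragments in every library. ERCC RNAs, synthetic transcripts spiked into a set mass of RNA, took 0.736% to 1.15% of the fragments. Scaling on them gives transcripts per mass of RNA, and it moved the median difference over all genes from −0.16 to 0.15 for 16 h Ex-4 in WT cells and from 0.09 to −0.33 for the 16 h Ex-4 interaction, so values under that scaling, and after centring each library on its median gene, are given for calls that changed.

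Of 8 beta cell marker genes looked for, 7 had a row and their summed level was 44870 to 84520 TPM. Of 7 markers of other islet cells 6 stayed under 1 TPM in every library, as did all 6 markers of acinar and duct cells and 4 of 5 markers of stroma and blood. Gcg, the glucagon gene, was the exception among the islet markers. Its mean level was 167 TPM in WT CON and 6.32 TPM in S983A CON, and its highest means were 1285 TPM at 8 h FSK in WT and 107 TPM at 16 h FSK in S983A. Ins2, an insulin gene, had a mean of 2938 TPM in WT CON and 35068 TPM in S983A CON. Other beta cell markers did not all follow: Iapp went from 6990 to 3270 TPM and Nkx6-1 from 52.2 to 34.6 TPM. Slc30a8 was near equal at 777 and 783 TPM, and Ins1, Pdx1 and Pcsk1 were higher in S983A CON. Gcg and Ins2 moved with genotype and treatment beside every gene below, and the part of the markers in the results was not tested.

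The 2 glucose transporters changed in opposite directions at 16 h. At 1 h FSK Slc2a1 and Slc2a2 both lay above CON, by 0.22 and 0.18 in WT and by 0.86 and 0.19 in S983A. Of these only the Slc2a1 rise in S983A was called. At 8 h FSK in WT Slc2a2 differed from CON by −0.10, or 0.29 after median centring, and was called in neither. Slc2a1 (NM_138827, rn6 chr5:138154680-138182897, plus strand) stood at 33.6 and 33.3 TPM in the WT CON libraries, 55.0 and 57.9 TPM after 16 h Ex-4 and 131.5 and 138.9 TPM after 16 h FSK. No treated library at 16 h overlapped the CON libraries. Slc2a1 rose by 0.74 (SE 0.073, 1.67-fold, adjusted p = 4.2e-09) with 16 h Ex-4 and by 1.98 (3.95-fold, adjusted p = 3.81e-18) with 16 h FSK in WT cells. Slc2a2 (NM_012879, rn6 chr2:114413586-114445379, plus strand) stood at 534.3 and 499.8 TPM in WT CON, 299.0 and 311.4 TPM after 16 h Ex-4 and 234.2 and 228.2 TPM after 16 h FSK. Its 2 CON libraries lay above all 4 of those treated libraries. Slc2a2 fell by 0.76 (SE 0.050, 1.69-fold lower, adjusted p = 2.97e-12) with 16 h Ex-4, a difference of −0.57 after median centring and −0.42 after ERCC scaling that was called in neither. With 16 h FSK it fell by 1.16 (2.23-fold lower, adjusted p = 1.05e-16), and this was called under all 3 scalings. In bulk RNA, fewer cells expressing a gene and less RNA of it in each cell cannot be told apart.

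The S983A cells started from other levels of both transporters. Slc2a1 stood at 52.8 and 55.6 TPM in the S983A CON libraries, above both WT CON libraries, and was 0.68 (SE 0.073, 1.6-fold, adjusted p = 1.08e-08) higher. Slc2a2 stood at 63.6 and 61.7 TPM in S983A CON and was 8.14-fold lower than in WT CON (log2 difference −3.02, SE 0.050, adjusted p = 5.25e-25). No S983A library of any treatment reached the lowest WT library for Slc2a2, since the S983A libraries ran from 23.8 to 76.2 TPM and the WT libraries from 228.2 to 590.8 TPM. Both genotype differences were called under all 3 scalings. In S983A cells 16 h FSK brought Slc2a1 to 179.8 and 189.9 TPM, a rise of 1.75 (3.36-fold), and Slc2a2 to 24.4 and 23.8 TPM, a fall of 2.54-fold. Slc2a1 after 16 h Ex-4 was at 70.9 and 74.1 TPM in S983A, which is 0.41 (SE 0.073) above its CON and not called.

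As a share of the sum of both transporters, Slc2a1 made up 5.92% and 6.25% in WT CON and 45.4% and 47.4% in S983A CON. After 16 h FSK the share was 36.0% and 37.8% in WT and 88.0% and 88.9% in S983A. In WT CON the sum itself was 551 ± 24.6 TPM (SD over 2 libraries), and in S983A CON it was 117 ± 0.615 TPM. After 16 h FSK the sum was 366 ± 0.957 TPM in WT and 209 ± 6.67 TPM in S983A, so it was lower than CON in WT and higher than CON in S983A.

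Position on the chromosome was examined for each of the 8 genes through its 25 nearest tested genes on each side. The 50 neighbours of Slc2a1, spread over rn6 chr5:135663371-140756085, had a median genotype difference of 0.56 at CON, near the 0.68 of Slc2a1 itself, and 21 of them were called higher in S983A and 3 lower. For the other 7 genes the median of the 50 neighbours was between −0.19 and −0.03, and at most 5 were called higher and at most 7 lower. Of all 10275 genes tested, 852 were called higher in S983A at CON and 1145 lower. Slc2a2 and Pklr, at −3.02 and −1.10, lay well away from their neighbours' medians of −0.09 and −0.06. The part of the chr5 region in the Slc2a1 difference was not tested.

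**Figure D1:**
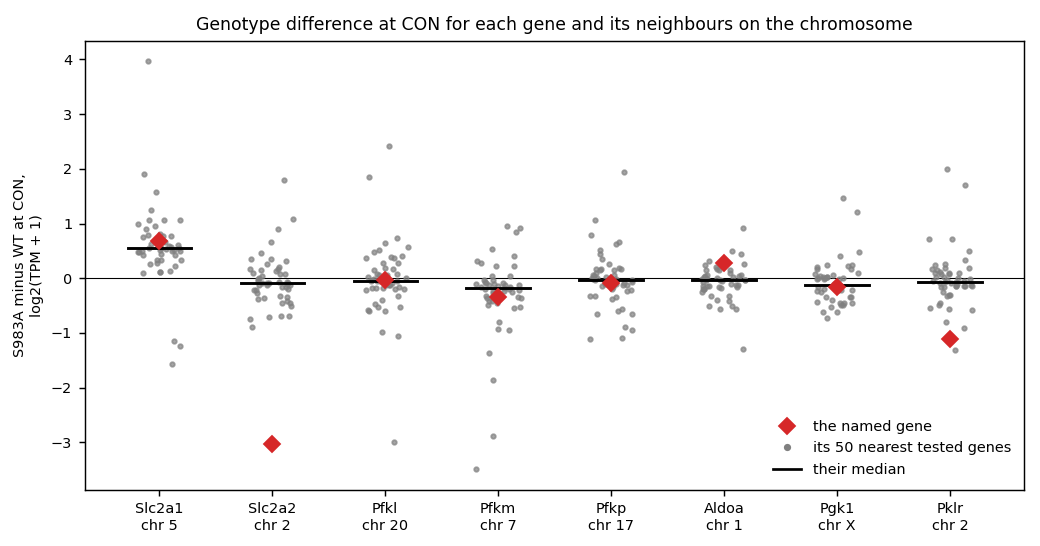
Difference between S983A and WT at CON (log2(TPM + 1), vertical axis) for each of the 8 genes (diamonds), its 50 nearest tested genes (dots, spread sideways at random for legibility) and their median (bar). The Slc2a1 neighbours are centred at 0.56, while Slc2a2 at −3.02 and Pklr at −1.10 lie below neighbours centred near 0.

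The windows from 250 bases before to 50 after the RefSeq transcription start (build GRCr8) were available for 8 of the 9 genes. Pgk1 had none, and the windows are shown for the 2 transporters because these moved in opposite directions at 16 h. Letters in capitals mark, on either strand, the cAMP response element TGACGTCA or its core TGACG, the E-box CACGTG, the hypoxia response cores ACGTG and GCGTG, the GC box GGGCGG, the TATA box TATAAA, the repeat unit CACGGG of carbohydrate response elements and the repeat unit GTTAA of HNF1 sites. An E-box contains ACGTG, and TGACGTCA contains TGACG.
Slc2a1, chr5:138002272-138002571, plus strand: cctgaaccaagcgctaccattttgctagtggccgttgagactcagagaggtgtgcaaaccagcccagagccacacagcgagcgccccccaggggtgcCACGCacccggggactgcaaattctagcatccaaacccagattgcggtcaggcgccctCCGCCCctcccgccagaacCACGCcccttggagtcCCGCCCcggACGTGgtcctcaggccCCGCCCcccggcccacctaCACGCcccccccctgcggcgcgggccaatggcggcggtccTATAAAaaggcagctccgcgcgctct
Slc2a2, chr2:113540120-113540419, plus strand: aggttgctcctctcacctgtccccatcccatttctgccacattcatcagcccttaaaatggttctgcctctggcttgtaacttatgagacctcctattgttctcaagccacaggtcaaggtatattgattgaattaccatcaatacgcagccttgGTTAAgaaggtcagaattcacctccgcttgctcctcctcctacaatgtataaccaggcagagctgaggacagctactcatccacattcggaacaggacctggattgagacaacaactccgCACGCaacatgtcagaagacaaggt

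The Slc2a1 window held 1 ACGTG, 3 GCGTG, 3 GC boxes and a TATAAA, with 68.3% G and C. This TATAAA began at position 25, after the annotated start site rather than before it. The Slc2a2 window held 1 GCGTG and 1 GTTAA, with 47.7% G and C. Of 33469 windows of this length, 19.3% held ACGTG, 29.7% GCGTG, 33.1% the GC box, 14.2% TATAAA and 24.9% GTTAA. TGACGTCA, held by 1.83% of windows, and CACGTG, held by 6.42%, were in none of the windows of the 8 genes; TGACG, held by 21.2%, was in that of G6pc2 alone. A match describes the letters only.

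The 3 phosphofructokinase subunits did not move together. Pfkm (NM_031715, rn6 chr7:139698148-139722132, plus strand), the muscle subunit and the most abundant of the 3 in WT CON, stood at 218.6 and 216.5 TPM there. After 8 h FSK it was at 108.7 and 109.9 TPM, and after 16 h FSK at 187.0 and 183.4 TPM. The fall of 0.99 at 8 h (SE 0.034, 1.98-fold lower, adjusted p = 4.74e-19) was followed by a rise of 0.76 from 8 to 16 h (1.69-fold, adjusted p = 1.11e-15), which left Pfkm −0.23 from CON, or 0.17 after ERCC scaling, and not called. In S983A the CON libraries held 176.3 and 165.8 TPM, and the 8 h FSK libraries 58.9 and 61.3 TPM, a fall of 1.49 (2.81-fold lower, adjusted p = 9.89e-23). From 8 to 16 h FSK Pfkm rose by 0.96 in S983A (1.94-fold, adjusted p = 3.98e-18). With Ex-4, Pfkm was called at no time in either genotype: at 8 h it differed from CON by −0.26 in WT and −0.20 in S983A.

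Pfkp (NM_206847, rn6 chr17:68510765-68574387, minus strand), the platelet subunit and the least abundant of the 3 in CON, stood at 45.4 and 48.7 TPM in WT CON, 75.2 and 80.3 TPM after 16 h Ex-4 and 169.5 and 174.5 TPM after 16 h FSK. It rose by 0.71 with 16 h Ex-4 (SE 0.058, 1.64-fold, adjusted p = 1.29e-10) and by 1.85 with 16 h FSK (3.6-fold, adjusted p = 1.55e-19). In S983A the CON libraries held 45.02 and 43.5 TPM, the 16 h Ex-4 libraries 50.8 and 55.3 TPM and the 16 h FSK libraries 137.9 and 139.8 TPM. There the 16 h Ex-4 difference was 0.26 and not called, and the 16 h FSK rise was 1.63 (3.09-fold, adjusted p = 1.87e-18). Pfkl (NM_013190, rn6 chr20:11393887-11415880, plus strand), the liver subunit, stood at 167.6 and 168.7 TPM in WT CON and 282.0 and 287.8 TPM after 16 h FSK. It rose by 0.76 with 16 h FSK in each genotype (1.69-fold in both) and was called in no other comparison with CON on the TPM scale. At 8 h FSK in S983A it lay 0.44 above CON, a difference that was called at 0.78 after median centring, 0.72 by edgeR and 0.76 by DESeq2 and was 0.35 and not called after ERCC scaling. With 16 h Ex-4 Pfkl differed from CON by 0.28 in both genotypes, and in WT the difference of 0.62 after ERCC scaling was called.

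The make-up of the summed subunit levels shifted with FSK. Pfkm made up 50.6% and 49.9% of the sum in WT CON, 30.6% and 29.7% after 8 h FSK and 29.3% and 28.4% after 16 h FSK. In S983A it made up 46.1% and 44.1% in CON, 16.1% and 15.4% after 8 h FSK and 22.2% and 21.8% after 16 h FSK. Over the same groups Pfkp went from 10.53% and 11.2% in WT CON to 26.5% and 27.03% after 16 h FSK, and from 11.8% and 11.6% to 25.7% and 26.2% in S983A. With 16 h Ex-4 the Pfkm share was 47.3% and 46.9% in WT and 42.9% and 40.1% in S983A. The summed level of the 3 subunits was 433 ± 1.57 TPM (SD over 2 libraries) in WT CON, 362 ± 10.8 TPM after 8 h FSK and 642 ± 5.09 TPM after 16 h FSK. These shares and sums are descriptions, with no test.

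**Figure D2:**
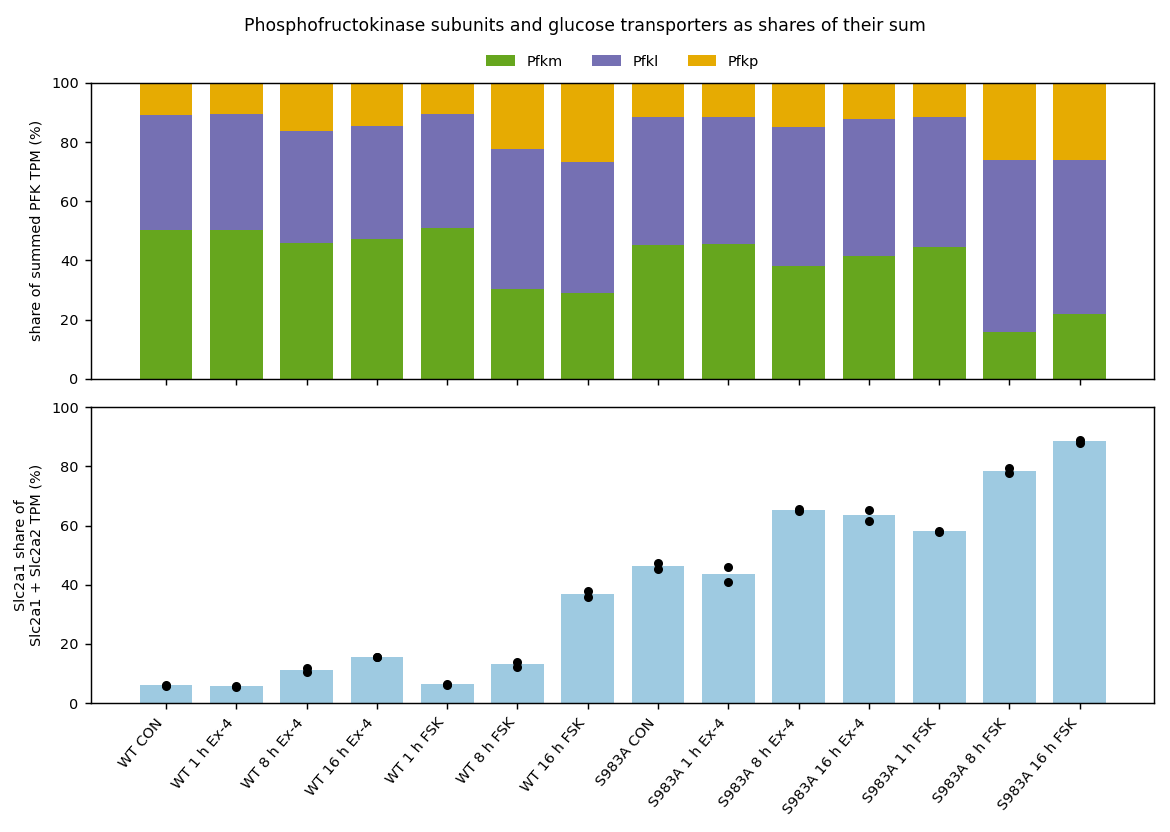
Upper panel: mean share (%) of Pfkm, Pfkl and Pfkp in their summed TPM in each of the 14 groups; lower panel: share (%) of Slc2a1 in the sum of Slc2a1 and Slc2a2, with bars for the mean and dots for the 2 libraries. Pfkm shrinks to a mean of 15.7% after 8 h FSK in S983A, and the Slc2a1 share runs from a mean of 5.65% in WT at 1 h Ex-4 to 88.5% in S983A at 16 h FSK.

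Aldoa, which splits fructose bisphosphate into 2 trioses, had the highest level of the 8 genes. Its 3 transcripts in the table had means of 1764, 1810 and 1710 TPM over all libraries, and the one kept (NM_001177305, rn6 chr1:198228387-198233215, minus strand) ranked 34 among all genes. How reads shared with other copies of a gene were counted is not given in the sources used here, which bears on Aldoa and Pgk1 as genes with processed copies. Aldoa stood at 851 and 881 TPM in WT CON, 1370 and 1392 TPM after 8 h Ex-4, 2264 and 2315 TPM after 16 h Ex-4 and 3926 and 3923 TPM after 16 h FSK. Each step in that series cleared the libraries of the step before. Aldoa rose by 0.67 with 8 h Ex-4 (SE 0.046, 1.59-fold, adjusted p = 7.83e-12), by 1.40 with 16 h Ex-4 (2.64-fold, adjusted p = 5e-18) and by 2.18 with 16 h FSK (4.53-fold, adjusted p = 6.46e-23). In S983A it stood at 1020 and 1080 TPM in CON, 1849 and 2125 TPM after 16 h Ex-4 and 3757 and 3795 TPM after 16 h FSK. The rises there were 0.92 (1.89-fold, adjusted p = 1.23e-14) and 1.85 (3.59-fold, adjusted p = 1.6e-21). The spread between the 2 S983A libraries at 16 h Ex-4, an SD of 195 TPM, was the widest of any group for this gene.

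Pgk1 (NM_053291, rn6 chrX:77263399-77279373, plus strand), the kinase of the first ATP-producing step, stood at 414.6 and 426.9 TPM in WT CON, 569.0 and 552.7 TPM after 16 h Ex-4 and 963.1 and 962.5 TPM after 16 h FSK. It rose by 1.19 with 16 h FSK (SE 0.055, 2.29-fold, adjusted p = 3.46e-16). With 16 h Ex-4 it lay 0.41 above CON, which was not called on the TPM scale, while 0.60 after median centring and 0.75 after ERCC scaling were called. In S983A it stood at 394.4 and 356.6 TPM in CON, 633.2 and 688.3 TPM after 8 h FSK and 1043 and 1078 TPM after 16 h FSK. It rose by 0.81 at 8 h (1.76-fold, adjusted p = 5.17e-13) and rose 2.82-fold at 16 h (adjusted p = 3.39e-18). In WT the difference at 8 h FSK was 0.19 and not called.

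Pklr, the pyruvate kinase of liver and red cells, fell in both genotypes. Pklr (NM_012624, rn6 chr2:188449661-188458034, plus strand) stood at 224.7 and 219.6 TPM in WT CON, 104.3 and 102.0 TPM after 8 h Ex-4, 118.9 and 123.6 TPM after 16 h Ex-4, 33.8 and 30.2 TPM after 8 h FSK and 51.4 and 52.3 TPM after 16 h FSK. All 8 of these treated libraries lay below CON, with FSK below Ex-4. Pklr fell by 1.10 with 8 h Ex-4 (SE 0.042, 2.14-fold lower, adjusted p = 1.35e-16) and by 2.76 with 8 h FSK (6.76-fold lower, adjusted p = 1.59e-25). The fall of 0.87 with 16 h Ex-4 (1.83-fold lower, adjusted p = 1e-14) was −0.54 and not called after ERCC scaling. With 16 h FSK the fall was 2.08 (4.23-fold lower, adjusted p = 2.99e-23).

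In S983A CON, Pklr was already at 101.4 and 104.3 TPM, 2.15-fold below WT CON (log2 difference −1.10, SE 0.042, adjusted p = 1.69e-17). It reached 15.3 TPM in both S983A libraries at 8 h FSK, the lowest level of the 14 groups and a fall of 2.67 from CON (6.36-fold lower, adjusted p = 1.91e-25). At 16 h FSK it stood at 42.1 and 40.9 TPM, a fall of 1.29 (2.45-fold lower). With Ex-4 in S983A the differences from CON were −0.58 at 8 h and −0.29 at 16 h, and neither was called; without S983A CON replicate 1 or S983A 8 h Ex-4 replicate 2 the 8 h difference was −0.60 or −0.59 and was called. Pklr rose again from 8 to 16 h FSK, by 0.68 in WT (1.6-fold) and by 1.38 in S983A (2.6-fold). The rise in WT was 0.53 and not called after median centring.

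The promoter windows of Pklr, which fell, and Pfkp, which rose, are shown for the same motifs, capitals again marking matches on either strand.
Pklr, chr2:176841014-176841313, plus strand: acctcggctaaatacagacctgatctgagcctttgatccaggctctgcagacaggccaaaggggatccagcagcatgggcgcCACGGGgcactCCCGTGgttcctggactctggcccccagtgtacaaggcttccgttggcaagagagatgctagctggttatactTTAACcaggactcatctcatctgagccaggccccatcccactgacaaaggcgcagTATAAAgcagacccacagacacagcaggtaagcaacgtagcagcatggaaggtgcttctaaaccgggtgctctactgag
Pfkp, chr17:68639563-68639862, plus strand: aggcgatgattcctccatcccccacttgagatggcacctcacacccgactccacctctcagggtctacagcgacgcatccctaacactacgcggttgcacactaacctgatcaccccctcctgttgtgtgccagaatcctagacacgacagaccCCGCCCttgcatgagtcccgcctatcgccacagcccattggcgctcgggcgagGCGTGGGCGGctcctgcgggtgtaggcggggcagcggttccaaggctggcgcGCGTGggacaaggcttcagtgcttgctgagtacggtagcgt

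The Pklr window held CACGGG on both strands, with first bases at positions -168 and -157 from the start site, besides 1 GTTAA and a TATAAA at -29. CACGGG was found in 9.63% of all windows, and among the 8 genes Pfkl had it too. The Pfkp window held 2 GC boxes and 2 GCGTG, 1 of each overlapping, with 63% G and C. RefSeq places Pfkp on the plus strand in GRCr8, while the expression table gives the minus strand in rn6. Of the 3 windows for Aldoa, the third held 4 GC boxes and 1 ACGTG and the other two held none of the motifs.

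**Figure D3:**
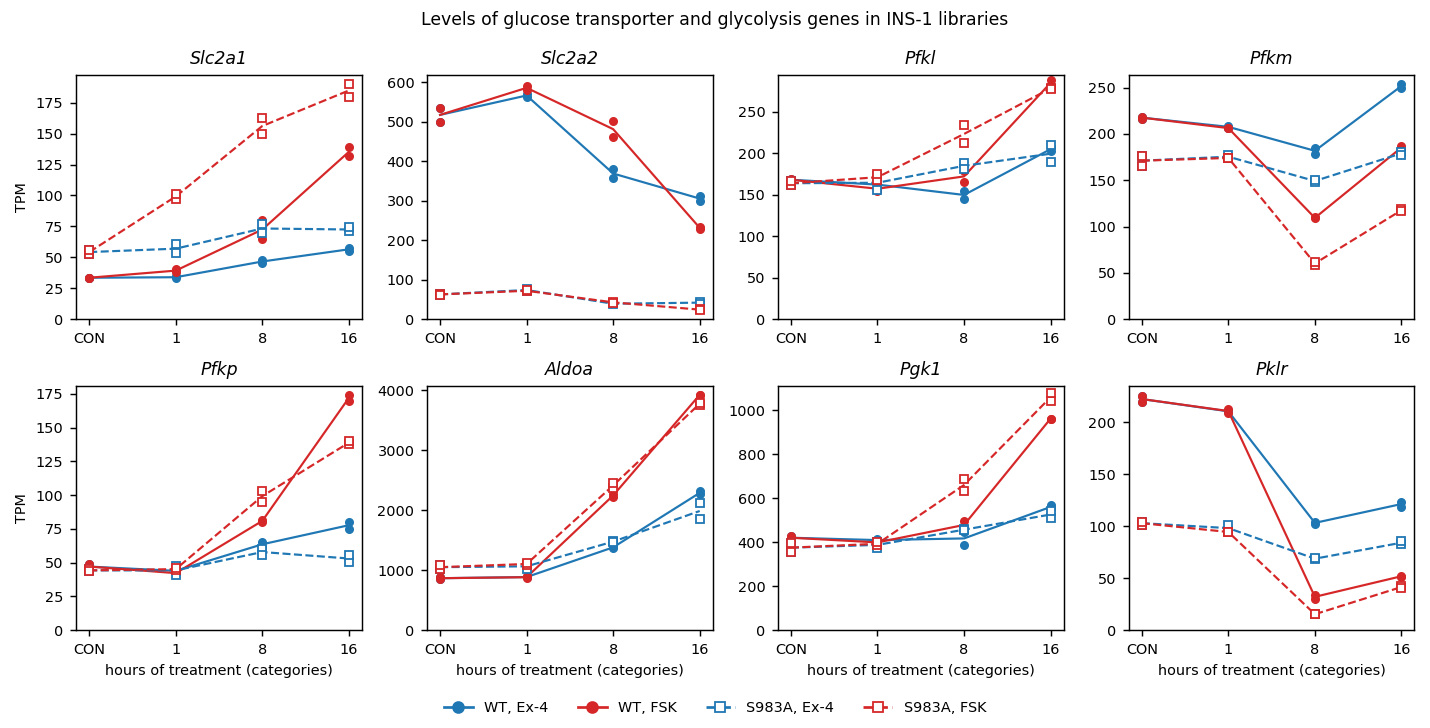
Level in TPM (vertical axis, from 0) of the 8 genes against hours of treatment (horizontal axis, as categories), with 2 points for the libraries of each group and lines through the means; filled circles and solid lines are WT, open squares and dashed lines S983A, blue Ex-4 and red FSK. Slc2a2 is at most 76.2 TPM in every S983A library, and Pklr and Pfkm are lowest at 8 h FSK.

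Ordered by level, the 14 groups ran for Slc2a1 from 33.5 TPM in WT CON to 185 TPM in S983A at 16 h FSK, and for Slc2a2 from 24.1 TPM in S983A at 16 h FSK to 586 TPM in WT at 1 h FSK, a 24.3-fold range. Pklr ran over a 14.5-fold range, from 15.3 TPM in S983A at 8 h FSK to 222 TPM in WT CON. Aldoa ran from 866 TPM in WT CON to 3924 TPM in WT at 16 h FSK, and Pgk1 from 376 TPM in S983A CON to 1060 TPM in S983A at 16 h FSK. Of the 13 pairs of groups next to each other in the order, the libraries overlapped in 5 for Slc2a1, 4 for Slc2a2, 6 for Pfkl and 3 for Pfkm. They overlapped in 4 for Pfkp, 5 for Aldoa, 5 for Pgk1 and 2 for Pklr. With 2 libraries in each group, overlap or its absence is a description and not a test. Slc2a2 in WT at 1 h Ex-4 and in WT CON did not overlap, for example, and had a limma adjusted p of 0.0575.

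At 1 h few of the genes had moved. With 1 h Ex-4 none of the 8 was called in WT (2.87% of the 10275 genes tested were called) or in S983A (3.04%). With 1 h FSK none was called in WT (7.47% of all genes). At an unadjusted limma p under 0.05 there was 1 gene of the 8 with 1 h Ex-4 in each genotype and 4 with 1 h FSK in WT, and edgeR and DESeq2 called 0 in each. No count over all genes was made at that unadjusted p. At an adjusted p under 0.05 with no fold minimum there were 0 in WT and 1 in S983A with 1 h Ex-4. There were 3 with 1 h FSK in WT. Over all genes these comparisons then had 524 higher and 2068 lower, 700 and 1992, and 710 and 3828. With 1 h FSK 1 gene was called in S983A (10.4% of all genes). This was Slc2a1, at 97.3 and 101.1 TPM against 52.8 and 55.6 TPM in CON, a rise of 0.86 (1.81-fold, adjusted p = 3.37e-10) that was called under all 3 scalings. In WT the 1 h FSK libraries held 40.2 and 38.2 TPM of Slc2a1, 0.22 above CON.

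At 8 h of Ex-4, 2 of the 8 were called in WT, where 9.6% of all genes were. Aldoa rose and Pklr fell; Slc2a1, at 0.47 above CON and not called, was called at 0.59 after median centring and 0.61 after ERCC scaling. In S983A 1 was called, with 6.3% of all genes: Slc2a2 fell by 0.67 (1.59-fold lower), from 63.6 and 61.7 TPM to 40.5 and 37.6 TPM. At 8 h of FSK 5 of the 8 were called in WT, with 43.6% of all genes, and 6 in S983A, with 46.1%. Slc2a1, Pfkp and Aldoa rose and Pfkm and Pklr fell in both genotypes, and Pgk1 rose in S983A. There Slc2a2, at −0.55 and not called, was called at −0.64 after ERCC scaling and was −0.21 after median centring, and Pfkl was called after median centring as given above.

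At 16 h of Ex-4, 5 of the 8 were called in WT, with 11.8% of all genes. Slc2a1, Pfkp and Aldoa rose and Slc2a2 and Pklr fell. After ERCC scaling 5 were called, all higher, with Pfkl and Pgk1 in the place of the 2 that fell. Over all genes that scaling called 1002 higher and 268 lower. In S983A 1 was called, with 11.9% of all genes, and it was Aldoa; Slc2a2, at −0.57, was called at −0.68 after ERCC scaling, and at −0.65 or −0.60 without S983A 16 h Ex-4 replicate 1 or S983A CON replicate 2. The median difference over the 8 genes was 0.35 in WT and 0.27 in S983A, against −0.16 and −0.06 over all genes. At 16 h of FSK 7 of the 8 were called in WT (34.5% of all genes) and 7 in S983A (33.3%), all but Pfkm in both. Slc2a1, Pfkl, Pfkp, Aldoa and Pgk1 rose, and Slc2a2 and Pklr fell. The median over the 8 genes was 0.98 in WT and 1.13 in S983A, against −0.20 and −0.10 over all genes.

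**Figure D4:**
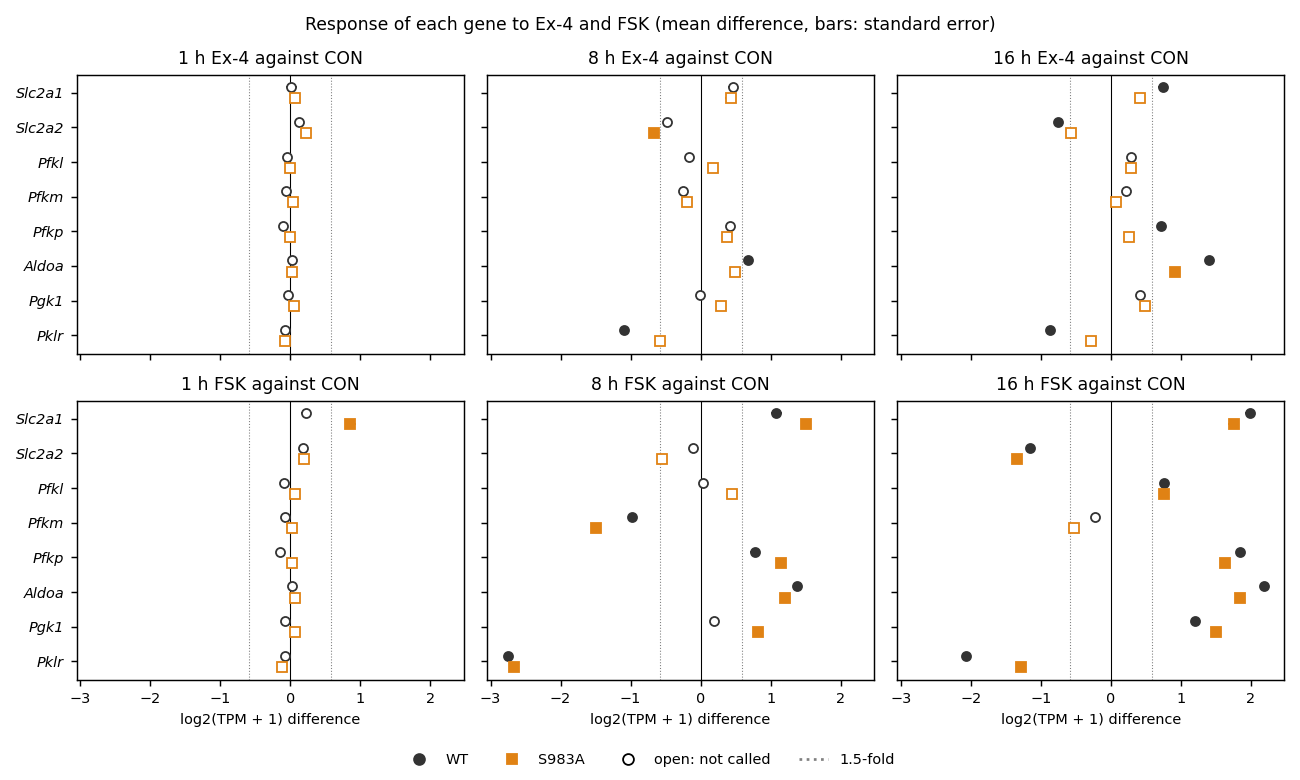
Difference from CON of the same genotype on the log2(TPM + 1) scale (horizontal axis) for each gene at 1, 8 and 16 h of Ex-4 (upper row) and FSK (lower row); circles are WT, squares S983A, filled symbols called, bars the standard error, mostly narrower than the symbol, and dotted lines the 1.5-fold limit. At 16 h FSK 7 genes are called in each genotype, with 34.5% of all genes in WT and 33.3% in S983A. At 16 h Ex-4 5 are called in WT (11.8% of all genes) and 1 in S983A (11.9%). In the test of the difference between these 16 h Ex-4 responses, 0 of the 8 are called on the TPM scale.

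At CON, 3 of the 8 genes differed between genotypes, with 19.4% of all genes called: Slc2a1 higher and Slc2a2 and Pklr lower in S983A. Pfkm lay at −0.35 (1.27-fold lower, adjusted p = 1.61e-09) and Aldoa at 0.28, both inside the 1.5-fold limit. Pfkl, Pfkp and Pgk1 lay at −0.04, −0.09 and −0.17, and at 0.17, 0.12 and 0.04 after ERCC scaling, called in neither.

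Ex-4 and FSK were compared directly at matched times, 8 and 16 h in each genotype, at the single dose used of each. In WT 4 of the 8 genes differed at 8 h (28.1% of all genes) and 5 at 16 h (18.7%). The 8 h count in WT, 2 higher and 2 lower with Ex-4, changed with scaling. Median centring gave 1 higher and 4 lower, while ERCC scaling gave 2 higher and 0 lower. Over all genes median centring called 1195 higher and 1058 lower, and ERCC scaling 3155 and 367. Slc2a1 and Aldoa were at −0.62 and −0.70 on the TPM scale and at −0.49 and −0.57 after ERCC scaling. Pfkm, at 0.73, was 0.46 and not called after median centring. Slc2a2 and Pfkp, at −0.38 and −0.34 and not called, were called at −0.65 and −0.61 after median centring. In S983A 5 differed at 8 h (36.5%) and 7 at 16 h (16.3%). Pgk1 at 8 h in S983A, at −0.53 and not called, was called at −0.83 after median centring. At 16 h Slc2a1, Pfkp, Aldoa and Pgk1 were lower with Ex-4 than with FSK in both genotypes, by 2.37-, 2.2-, 1.71- and 1.72-fold in WT and 2.53-, 2.59-, 1.9- and 2.01-fold in S983A. Pklr was higher with Ex-4, by 1.21 (2.31-fold) in WT and 1.00 (2-fold) in S983A. Each of these 16 h differences was called under all 3 scalings. Another pair was called in S983A at 16 h, Slc2a2 (0.77 higher with Ex-4) and Pfkm (0.60 higher), and neither was after ERCC scaling, at 0.43 and 0.25; Pfkm was not called after median centring either, at 0.51. Pfkl, at −0.48 and not called there, was called at −0.83 after ERCC scaling.

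Between 8 and 16 h of FSK all 8 genes were called in WT (17.6% of all genes) and 5 in S983A (27.9%). In WT 7 rose and Slc2a2 fell, from 460.3 and 501.5 TPM to 234.2 and 228.2 TPM (2.07-fold lower). In S983A Pfkm, Aldoa, Pgk1 and Pklr rose and Slc2a2 fell by 1.73-fold. Slc2a1, at 149.7 and 162.5 TPM at 8 h and 179.8 and 189.9 TPM at 16 h, was not called there (0.24). After median centring 6 were called in WT, without Pfkl (0.58) and Pklr, and 3 in S983A, without Aldoa (0.46) and Pgk1 (0.50). Over all genes 881 were then called higher and 608 lower in WT, and 1410 and 1187 in S983A. After ERCC scaling 8 were called in WT, with 3796 of all genes higher and 115 lower. In S983A 6 were then called higher and 0 lower, against 4171 and 250 over all genes. Pfkl at 0.65 and Pfkp at 0.82 were added there, and Slc2a2 at −0.47 was no longer called.

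Whether the genotypes responded differently was tested by the interaction, the S983A response minus the WT response. With Ex-4 no gene of the 8 was called at 1 h (0.672% of all genes), 8 h (2.77%) or 16 h (7.24%). At an unadjusted limma p under 0.05 there were 1, 5 and 6 of the 8, with no count over all genes at that p to set beside them. At an adjusted p under 0.05 with no fold minimum there were 0, 3 and 6 of the 8. Over all genes there were then 90 higher and 69 lower at 1 h, 1456 and 454 at 8 h, and 2995 and 1322 at 16 h. Among the count tools, edgeR and DESeq2 on recovered fragments called 0 at 1 h and 8 h and 1 at 16 h. DESeq2 with ERCC size factors called 0, 0 and 3. Over all genes at 16 h these tools called 449 higher and 427 lower, 422 and 422, and 147 and 1786, in that order. At 16 h Ex-4 the interaction was −0.48 for Aldoa (SE 0.066, adjusted p = 2.24e-06) and −0.46 for Pfkp (SE 0.082, adjusted p = 9.05e-05), both short of the 1.5-fold limit. After median centring these 2 were called, at −0.61 and −0.59, with 330 of all genes called higher and 378 lower. After ERCC scaling 4 were called, Slc2a1 at −0.76, Pfkm at −0.59, Pfkp at −0.89 and Aldoa at −0.93, with the median of all genes at −0.33. That scaling called 138 of the 10275 genes higher and 1703 lower. Pklr had an interaction of 0.58 (SE 0.060, adjusted p = 3.62e-08), just inside the limit, and it was called when any 1 of WT CON replicate 2, WT 16 h Ex-4 replicate 2, S983A CON replicate 2 or S983A 16 h Ex-4 replicate 1 was left out, at 0.60 to 0.61, and was 0.14 after ERCC scaling. Slc2a2, Pfkl and Pgk1 were at 0.18, 0.00 and 0.07 on the TPM scale and −0.26, −0.45 and −0.37 after ERCC scaling, none of them called.

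**Figure D5:**
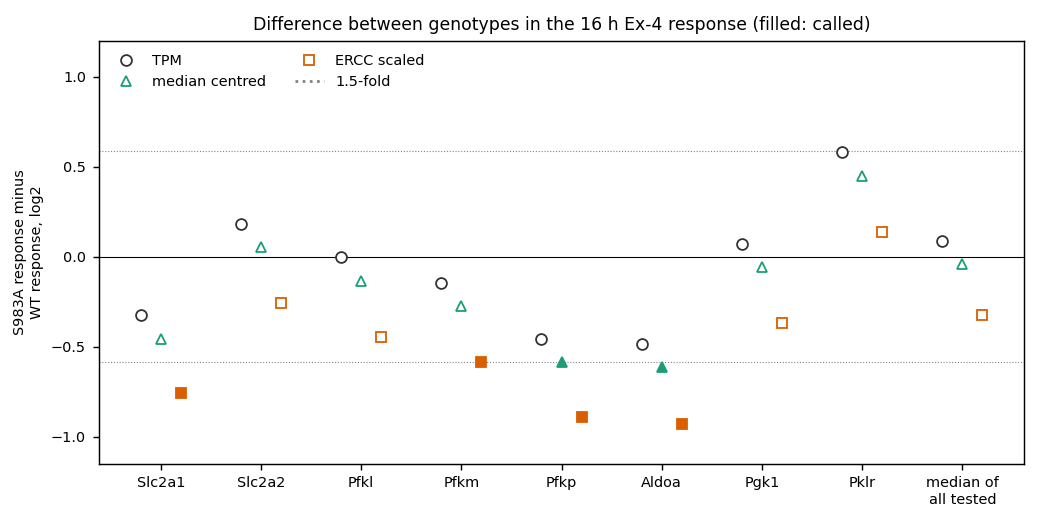
S983A response minus WT response at 16 h Ex-4 (log2, vertical axis) for the 8 genes and for the median of all tested genes, on the TPM scale (circles), after median centring (triangles) and after ERCC scaling (squares); filled symbols are called and dotted lines mark the 1.5-fold limit. None of the 8 is called on the TPM scale, 2 after median centring and 4 after ERCC scaling, where the median of all genes is −0.33. Over all genes 558 are called higher and 186 lower on the TPM scale, 330 and 378 after median centring, and 138 and 1703 after ERCC scaling.

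With FSK 1 of the 8 was called in each interaction, with 1.64% of all genes at 1 h, 13.9% at 8 h and 17% at 16 h. At 1 h Slc2a1 rose more in S983A, with an interaction of 0.64 (SE 0.104, 1.55-fold, adjusted p = 0.000163), and after ERCC scaling it was 0.36 and not called. At 8 h Pgk1 rose more in S983A, with 0.63 (SE 0.078, 1.55-fold, adjusted p = 2.84e-07), and it was 0.57 after median centring and 0.52 after ERCC scaling, called in neither. It was not called either without WT 8 h FSK replicate 1, S983A CON replicate 2 or S983A 8 h FSK replicate 2, the largest library, at 0.58, 0.56 and 0.57. Pfkm at 8 h, with an interaction of −0.51 that was not called, was called at −0.62 after ERCC scaling and −0.61 by DESeq2 with ERCC size factors. At 16 h Pklr fell less in S983A, with 0.79 (SE 0.060, 1.73-fold, adjusted p = 5.59e-11), and this was called under all 3 scalings. Since S983A CON was already 2.15-fold below WT CON, the 16 h FSK levels themselves were close, 51.4 and 52.3 TPM in WT against 42.1 and 40.9 TPM in S983A.

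The rest of the pathway was followed through a list of 47 other symbols, of which 44 had a row and 27 were tested. The other 17 stayed under a mean of 1 TPM, among them the hexokinases Hk1 and Hk2 and the lactate dehydrogenase Ldha, listed at 0.00339, 0.0211 and 0.000714 TPM. Tpi1, whose product glycolysis needs between aldolase and Gapdh, was also listed at 0.137 TPM, so a level near 0 in this table is only a listed value. With 16 h Ex-4 in WT, 5 of the 27 were called (11.8% of all genes were), 3 higher and 2 lower. Median centring gave 8 higher and 2 lower, with 665 and 407 over all genes. ERCC scaling gave 10 higher and 2 lower, with 1002 and 268 over all genes. Aldoc, an aldolase isoform, rose from 2.81 and 2.76 TPM to 17.001 and 16.8 TPM (2.24 on the log2 scale, 4.73-fold in TPM + 1). Slc2a9, a urate and hexose transporter, rose by 0.59. Slc16a7, a monocarboxylate transporter, was the third that rose. Slc2a4, the insulin-responsive GLUT4, fell from 16.4 and 16.2 TPM to 4.604 and 4.113 TPM (3.23-fold lower in TPM + 1). Pfkfb3, which makes the activator of phosphofructokinase, fell by 0.99 (1.98-fold lower in TPM + 1). In S983A 7 of the 27 were called with 16 h Ex-4 (11.9% of all genes), 5 higher and 2 lower. After ERCC scaling 3 were higher and 4 lower, with 377 and 1041 over all genes.

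With 16 h FSK 12 of the 27 were called in WT (34.5% of all genes), 8 higher and 4 lower, and 16 in S983A (33.3% of all genes), 10 higher and 6 lower. After ERCC scaling the split was 11 higher and 2 lower in WT and 11 higher and 5 lower in S983A. Over all genes it was 2272 higher and 1169 lower in WT and 2101 and 1419 in S983A. Gpi, Gapdh, Pgam1, Ldhb, Slc16a1 and Slc16a7 rose in both, and Slc2a4, Slc2a5 and Pfkfb2 were among those that fell in both; Pfkfb2 in WT, at −0.74, was −0.36 and not called after ERCC scaling and −0.50 and not called after median centring.

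At CON 11 of the 27 differed between genotypes (19.4% of all genes), 6 higher and 5 lower in S983A. Slc2a5, Slc2a9, Fbp1, Fbp2, Aldoc and Eno3 were higher and Slc2a4, Pfkfb3, Pfkfb4, Pkm and Ldhb were lower. Pkm, the other pyruvate kinase gene, stood at 316.9 and 325.7 TPM in WT and 199.6 and 208.7 TPM in S983A and was called lower at −0.65, but not after median centring (−0.56) or ERCC scaling (−0.44). Slc2a4 stood at 16.4 and 16.2 TPM in WT and 2.97 and 3.17 TPM in S983A and was lower, and Aldoc, at 15.2 and 14.3 TPM in S983A, was higher. At the 16 h Ex-4 interaction 6 of the 27 were called (7.24% of all genes), Slc2a4, Pfkfb3, Fbp1 and Slc16a1 higher and Slc2a5 and Aldoc lower. For Aldoc the interaction was −2.21 (SE 0.118, adjusted p = 4.21e-13), its S983A libraries being at 14.95 and 15.4 TPM after 16 h Ex-4 against 15.2 and 14.3 TPM in CON. For Slc16a1, a lactate and pyruvate transporter, it was 1.72 (SE 0.106, adjusted p = 5.7e-12). With ERCC scaling 1 was called higher and 6 lower, and the interactions of Slc2a4, Pfkfb3 and Fbp1, at 0.44, 0.44 and 0.47, were not called.

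For each of the 8, the gene outside the 8 whose 14 group means were most like its own was sought among 7669 genes whose mean level was 10 TPM or more, as a description over groups that share treatments and CON libraries. Pearson r was 0.995 for Pklr with Stmn2, 0.989 for Slc2a2 with Rcan2, 0.987 for Pfkm with Prrg2, 0.980 for Pfkp with Fads3, 0.973 for Aldoa with P4hb, 0.954 for Pgk1 with Prdx5, 0.950 for Slc2a1 with Atp6v0b and 0.922 for Pfkl with Bnip3. Atp6v0b is itself among the chr5 neighbours of Slc2a1 described above, with a genotype difference of 0.26 at CON. Among the 8 genes themselves r was 0.972 between Pfkl and Pgk1, 0.944 between Pfkp and Aldoa and 0.893 between Pfkm and Pklr, and it was −0.843 between Slc2a1 and Pklr and −0.674 between Slc2a1 and Slc2a2.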

How the data were processed

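The 28 RNA-seq libraries were grouped by sample title, and table columns, whose library numbers differ from those in the labels, were matched by genotype, treatment, hours and replicate. Per the labels' processing notes the authors used STAR 2.5.3a, HOMER 4.11.1 and DESeq2 1.24.0 with build rn6. The deposited TPM values of the authors, relative to library total and transcript length, were not rescaled. The deposited counts are of the 92 ERCC sequences alone. The Length column (other) gives exon length in bases.

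The transcript with the highest mean TPM was kept for each symbol, and genes averaging 1 TPM or more were tested. The test was limma 3.58.1 (trend, R 4.3.3) on log2(TPM + 1), with 14 group means and 14 residual degrees of freedom, two-sided. Multiplying TPM by length and scaling to the ERCC counts gave back fragments. Of 146783 low values 100% were whole within 0.05 reads beyond rounding. They were tested with edgeR 4.0.16 and DESeq2 1.42.0. Replicates correlated at 0.998 to 0.999, and their counts differed by more than sampling noise (chi-square over its degrees of freedom from 2.46 to 9.79). The 2 replicate numbers were checked for pairing. Over 91 pairs of groups the correlation of their deviations ran from −0.280 to 0.283, with a median of 0.00346. It was above 0.1 in 17 pairs, so no pairing was common to all groups. A batch shared by some groups was not tested. Promoter sequences are from RefSeq (GRCr8). The members, the glycolysis list, the motifs and the marker lists were chosen with earlier results of these data known. From the list, the genes called in WT 16 h Ex-4, in genotype at CON or in the 16 h Ex-4 interaction were named, with values for at most 12, and 1 gene of the list is counted but not reported here by name. Alternatives were a pseudocount of 0.1, no filter, a mean of at least 5 TPM, median centring, ERCC scaling, the libraries of the contrast alone, a replicate block, no fold minimum, the count tools and each library left out in turn.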

Additional observations from a re-analysis of the deposited data

Results flagged for a closer look

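For 3 genes the response to FSK differed between the genotypes by a test of the difference itself, the interaction of genotype and treatment in limma. This was 1 of the 8 at each time, with 1.64% of all genes called at 1 h, 13.9% at 8 h and 17% at 16 h. For Slc2a1 at 1 h FSK the S983A response exceeded the WT response by 0.64 on the log2(TPM + 1) scale (SE 0.104, adjusted p = 0.000163). The S983A response was 0.86 and the WT response 0.22, and after ERCC scaling the difference was 0.36 and not called. For Pgk1 at 8 h FSK the S983A response exceeded the WT response by 0.63 (SE 0.078, adjusted p = 2.84e-07), from 0.81 in S983A and 0.19 in WT; it was not called after median centring (0.57), after ERCC scaling (0.52), by edgeR (0.58), or without any 1 of 3 libraries (0.56 to 0.58). For Pklr at 16 h FSK the difference was 0.79 (SE 0.060, adjusted p = 5.59e-11), from −1.29 in S983A and −2.08 in WT. Groups of 2 libraries are too small for a check of single libraries that stand apart.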

How the results depend on the processing

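Over 2200 alternatives for single differences of the 8 genes, not counting libraries left out, 2048 kept their direction where called and their side of the threshold, 114 were called only under the alternative and 38 were called only in the limma fit, with no called difference turned. A pseudocount of 0.1, no filter, a mean of at least 5 TPM, the libraries of the contrast alone and the replicate block changed no call: with the replicate block 5 of the 8 were called with 16 h Ex-4 in WT and 7 with 16 h FSK in each genotype, as without it.

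Counts of the 8 genes called moved by more than 1.5 times as follows. With ERCC scaling there were 4 for the 16 h Ex-4 interaction and 0 for the 1 h FSK interaction. There were 2 for 16 h Ex-4 in S983A and 2 for Ex-4 against FSK at 8 h in WT. Over all 10275 genes that scaling called 138 higher and 1703 lower, 48 and 277, 377 and 1041, and 3155 and 367, in that order. DESeq2 with ERCC size factors gave 3, 0, 2 and 2 for the same comparisons and 4 for 8 h Ex-4 in WT. Over all genes it called 147 and 1786, 52 and 302, 454 and 1281, 3808 and 405, and 679 and 450. Median centring gave 2 for the 16 h Ex-4 interaction, 0 for the 8 h FSK interaction and 3 for 16 against 8 h FSK in S983A. Over all genes it called 330 higher and 378 lower, 645 and 775, and 1410 and 1187. On recovered fragments edgeR gave 1, 0 and 3 for the same comparisons, and DESeq2 gave 1 for the first and 3 for the last. Over all genes edgeR called 449 higher and 427 lower, 742 and 935, and 1824 and 1326. DESeq2 called 422 and 422 for the first and 1826 and 1315 for the last. With no fold minimum 7 were called with 8 h Ex-4, 3 with 1 h FSK and 8 with 16 h Ex-4 in WT, and in S983A 1 with 1 h Ex-4, 8 with 8 h Ex-4, 7 with 16 h Ex-4 and 3 with 1 h FSK. Over all 10275 genes that setting called 1789 higher and 4293 lower, 710 and 3828, and 1677 and 5380 in WT, in that order. In S983A it called 700 and 1992, 2282 and 2915, 2529 and 3830, and 925 and 4463. Without that minimum there were also 6 for genotype at CON, 3, 6, 7 and 6 for the interactions at 8 h Ex-4, 16 h Ex-4, 8 h FSK and 16 h FSK, 8 each for Ex-4 against FSK at 8 and 16 h in WT and at 8 h in S983A, and 8 for 16 against 8 h FSK in S983A. Over all genes 2650 were then called higher and 4152 lower for genotype. For those interactions the numbers were 1456 and 454, 2995 and 1322, 3110 and 2398, and 3688 and 2266. For Ex-4 against FSK they were 6022 and 1885, 3859 and 3164, and 5969 and 2320, and for 16 against 8 h FSK 5212 and 2615.

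When each library was left out in turn, the lone library then being assumed to vary like the other groups, the count ran from 1 to 2 for 8 h Ex-4 and for 16 h Ex-4 in S983A and from 0 to 1 for the interactions at 16 h Ex-4 and 8 h FSK. Leaving out a library called 10 differences and ended 5 calls. Of these 5, 2 were for Slc2a1, Ex-4 against FSK at 8 h in WT, at −0.58 without WT 8 h Ex-4 replicate 2 and −0.46 without WT 8 h FSK replicate 2. Of 200 member differences, 18 changed sign after median centring and 25 after ERCC scaling while called under neither. The share of called genes that were higher, over all genes, moved by over 10 points in 18 of 25 comparisons with median centring and 15 with ERCC scaling: for 16 h Ex-4 in WT it was 29.9%, 62.0% and 78.9% on the TPM scale, after median centring and after ERCC scaling, and for its interaction 75%, 46.6% and 7.50%. The cause of these shifts was not tested.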
